A study of Mus musculus with 7 samples.

Results

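The kidney of untreated diabetic mice was compared with the kidney of nondiabetic mice across all listed genes, grouped by function and by nephron segment. The comparison held 5 of the 7 libraries of the series, namely 2 from untreated diabetic mice (named DM-22, replicates 1 and 2) and 3 from nondiabetic controls (named C, replicates 2, 8 and 9). All mice were wild-type C57BL/6 mice, described as male in the labels, that entered the experiment at 8 to 10 weeks of age. DM-22 mice received streptozotocin, a drug that destroys the insulin-producing beta cells of the pancreas, at 60 mg/kg on 5 days. They then stayed hyperglycaemic without further treatment for 22 weeks, which is a duration and not an age. The controls received no streptozotocin and were of matched age. Both groups therefore differed in the drug as well as in the blood glucose, and the effect of streptozotocin itself cannot be told apart from that of diabetes. The remaining 2 libraries, from diabetic mice given the SGLT2 inhibitor dapagliflozin, served here only in estimating the spread between libraries.

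Each library was made from polyA RNA of renal tissue, so that glomeruli, tubules, vessels and interstitium were read together. Fewer cells of a type and less RNA per cell cannot be told apart in such samples. The nephron filters plasma in the glomerulus, whose podocytes hold back protein. Its proximal tubule takes up glucose, phosphate, amino acids and filtered protein, the thick ascending limb takes up salt, and the distal and collecting segments adjust salt, water and acid. In type 1 diabetes more glucose reaches the proximal tubule, glomeruli enlarge, and with time albuminuria, tubular injury and fibrosis can follow. Known markers of each segment were used to read the tissue: Lrp2, the proximal tubular receptor for filtered protein, had 1258, 3597 and 2293 CPM in C and 1437 and 1838 CPM in DM-22 for control replicates 2, 8 and 9 and diabetic replicates 1 and 2. CPM are reads of a gene scaled to the reads of its library, and all values below are given in that order. Umod, the product of the thick ascending limb, had 3417, 2957 and 2534 CPM in C and 6933 and 2337 CPM in DM-22, so the tissue was kidney in every library.

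The 5 libraries held between 46456125 and 54502004 reads on 17537 listed genes, and the 13976 genes that reached 1 CPM in 2 or more of the 7 libraries were tested. Control replicate 2 stood apart from the other controls. Replicates 8 and 9 differed by at least 2-fold in 145 genes, or 1.04% of those tested, whereas replicate 2 differed by that much from replicate 8 in 2187 genes and from replicate 9 in 2102 genes. It differed from diabetic replicate 1 in only 873 genes. Diabetic replicate 2 differed from control replicate 8 in 816 genes and from control replicate 9 in 1049 genes. The diabetic libraries differed from each other in 1405 genes, so each was nearer to a control by this count. This split between the diabetic libraries remains when control replicate 2 is left out. Because control replicate 2 stood apart from the other controls, every result is given against all 3 controls and against control replicates 8 and 9. The second set of p-values rests on a pair of controls that were close to each other, and the choice to leave out replicate 2 was made with its position known. Nothing in the labels says whether replicate libraries shared a cage, day or litter, and p-values measure the spread between these libraries.

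Against all 3 controls no gene passed an adjusted p of 0.05 (limma, Benjamini-Hochberg over 13976 genes), that is 0% of those tested, and the smallest adjusted p was 0.804. With limma voom on the reads recovered from the values the count was also 0. At an unadjusted p under 0.05 there were 166 genes higher in DM-22 (1.19%) and 459 lower (3.28%). This split was 252 to 396 with median-of-ratios scaling and 48 to 676 with scaling by the library total. The DM-22 libraries lay above all 3 controls in 1512 genes (10.8%) and below all 3 in 1298 genes (9.29%). With scaling by the library total these counts were 498 and 2074, so the share of genes on each side depended on the scaling. Both counts at the unadjusted p also depended on single libraries: they were 30 and 137 without control replicate 9, 62 and 245 without control replicate 8, and 480 genes were higher without diabetic replicate 2. The median log2 fold change over all genes was 0.00.

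Against control replicates 8 and 9, 1 gene rose and 1 fell at an adjusted p of 0.05, together 0.0143% of those tested. Phlda3, a p53 target that restrains Akt signalling, rose, and Sugct, which carries coenzyme A to glutarate in lysine breakdown, fell. At an unadjusted p under 0.05, 1455 genes were higher (10.4%) and 2070 lower (14.8%). The DM-22 libraries lay above both of these controls in 4185 genes (29.9%) and below both in 4129 genes (29.5%). The adjusted count was 0 with limma voom, without either of these controls or without either SGLT2 inhibitor library, 637 without diabetic replicate 1 and 3008 without diabetic replicate 2. The position of control replicate 2 was then read for the genes at an unadjusted p under 0.05. Of the 1455 higher genes, replicate 2 lay above both other controls in 1405 (96.6%) and reached the lower of the diabetic libraries in 1056 (72.6%). Of the 2070 lower genes it lay below both in 1968 (95.1%) and reached the diabetic libraries in 1378 (66.6%). Over all genes tested it lay above both other controls in 44.2% and below both in 46.4%. This nondiabetic library therefore differed from replicates 8 and 9 in the same direction as the diabetic libraries in most of these genes. At an unadjusted p under 0.05 in both comparisons there were 146 higher and 416 lower genes.

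The 2 genes that passed the adjusted threshold without control replicate 2 show this position gene by gene. Phlda3 (chromosome 1, 135766119 to 135769136, plus strand, GRCm38) had 31.6, 5.18 and 4.81 CPM in C and 24.2 and 26.3 CPM in DM-22. Its log2 fold change was 2.23 ± 0.13 (SE) against replicates 8 and 9 (adjusted p = 0.0347) and 1.38 ± 0.75 against all 3 controls (adjusted p = 0.804). Control replicate 2 thus lay above both diabetic libraries. Sugct (chromosome 13, 16857472 to 17695553, minus strand) had 31.7, 138 and 146 CPM in C and 38.5 and 40.5 CPM in DM-22, with control replicate 2 below both diabetic libraries. Its log2 fold change was -1.83 ± 0.12 (adjusted p = 0.0347) without that library and -1.12 ± 0.63 with it. Aldh1a1, which makes retinoic acid from retinal, had 88.5, 12.3 and 12.4 CPM in C and 40.4 and 32.0 CPM in DM-22, and Aacs, which activates acetoacetate for lipid synthesis, had 59.8, 277 and 291 CPM in C and 112 and 109 CPM in DM-22. Both again placed control replicate 2 beyond the diabetic libraries. Mgmt, which removes methyl groups from guanine in DNA, had 19.99, 6.38 and 7.05 CPM in C and 16.9 and 17.9 CPM in DM-22 and a log2 fold change of 1.31 ± 0.16 without replicate 2 (adjusted p = 0.0781). Of the 10 lower genes with the smallest p without replicate 2, 6 lay below all 3 controls, beside 9.29% of all genes. They were Slc35d1, Clec2d, 1600010M07Rik, Rest, Arhgef39 and Gpbp1l1. The 10 higher genes chosen in the same way all overlapped with the controls through replicate 2. This choice by p had already taken genes beyond replicates 8 and 9. Rest, a repressor of neuronal genes, had 18.9, 39.2 and 36.6 CPM in C and 15.0 and 16.2 CPM in DM-22, while Slc35d1, a carrier of nucleotide sugars, had 33.2, 74.8 and 69.2 CPM in C and 26.6 and 25.5 CPM in DM-22.

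The 10 genes in each direction with the widest gap between DM-22 and all 3 controls were read as a description, since the gap chose them. By this choice they were separated with and without control replicate 2. The gene with the widest gap upward was Arntl, the core clock activator described further on. Acsl1, which activates long-chain fatty acids with coenzyme A (chromosome 8, 46471037 to 46536051), had 172, 242 and 199 CPM in C and 458 and 416 CPM in DM-22. The diabetic values were above every control, with a log2 fold change of 1.11 ± 0.19 against all controls and 0.99 ± 0.16 without replicate 2 (adjusted p = 0.804 and 0.0826). Ide, the insulin-degrading enzyme (chromosome 19, 37268743 to 37337852), had 99.1, 124 and 112 CPM in C and 203 and 197 CPM in DM-22 and a log2 fold change of 0.84 ± 0.23. Ndrg1, a gene induced by hypoxia and metal stress, had 1456, 1714 and 1747 CPM in C and 2710 and 3770 CPM in DM-22 and a log2 fold change of 0.97 ± 0.30. Hmox1, which breaks down haem, had 47.0, 33.4 and 39.4 CPM in C and 67.5 and 78.8 CPM in DM-22 and a log2 fold change of 0.87 ± 0.19. By the choice of the gap, both diabetic libraries were above each of the controls in all of these genes. Asb9, Acnat2, Tnfaip2, Nfil3 and Tmem37 complete the 10, and Asb9, Tnfaip2, Nfil3 and Tmem37 had log2 fold changes of 0.86, 0.73, 1.26 and 1.19. Acnat2, which joins acyl groups to amino acids, had 41.0, 64.5 and 55.7 CPM in C and 99.0 and 228 CPM in DM-22. None of the 10 passed the adjusted threshold in either comparison.

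Downward, Igfbp1 had the widest gap. This binding protein of insulin-like growth factors, whose liver gene is repressed by insulin, lies on chromosome 11 from 7197782 to 7202546. It had 22.6, 13.2 and 10.2 CPM in C and 4.12 and 3.75 CPM in DM-22, a log2 fold change of -1.76 ± 0.44 against all controls (adjusted p = 0.804). Dbp, a clock output described below with the other clock genes, and Folr2, a folate receptor of macrophages, were also among the 10, Folr2 with 1.41, 1.35 and 1.39 CPM in C and 0.378 and 0.0694 CPM in DM-22. Slc7a2, a carrier of arginine and lysine, had 10.8, 10.2 and 9.59 CPM in C and 3.11 and 4.65 CPM in DM-22 and a log2 fold change of -1.31 ± 0.33. Tyw3, a tRNA-modifying enzyme, had 37.3, 28.4 and 30.3 CPM in C and 15.0 and 13.4 CPM in DM-22. Adam12, a membrane metalloprotease, had 4.16, 4.25 and 5.66 CPM in C and 1.03 and 2.10 CPM in DM-22. By the choice of the gap, the diabetic libraries were below every control in all of these. 9530082P21Rik, Tmprss4 and Ano5 were also among the 10, with log2 fold changes of -1.11, -0.95 and -1.17. Against replicates 8 and 9 alone Igfbp1 had -1.45 ± 0.40 and Slc7a2 -1.27 ± 0.37 on the log2 scale (adjusted p = 0.112 and 0.123).

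**Figure D1:**
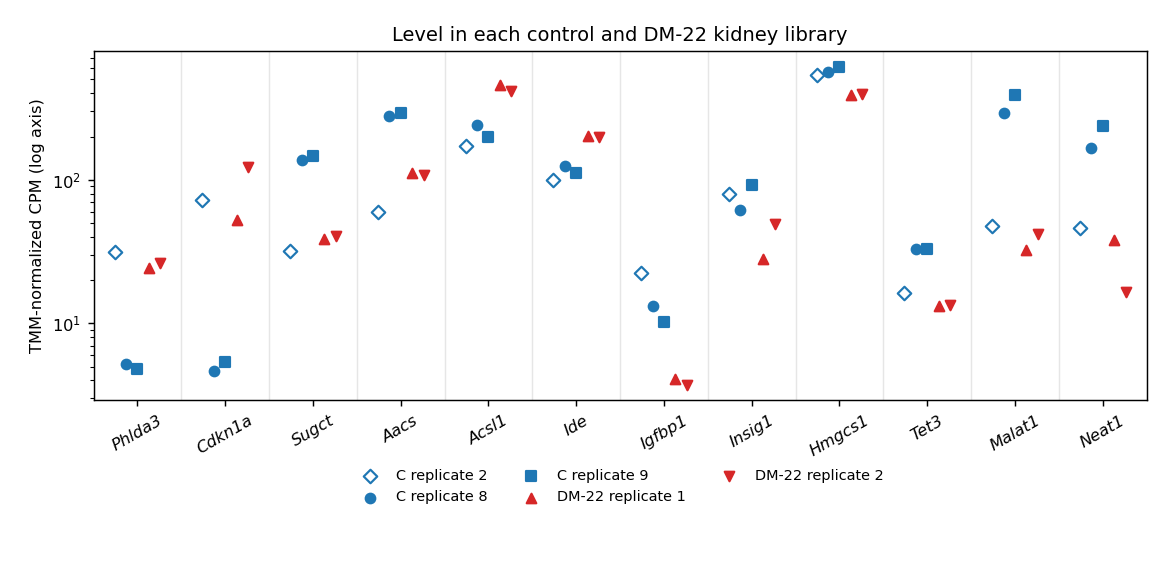
CPM on a log axis in each of the 3 C and 2 DM-22 libraries for 12 genes named in the text, with 1 point a library, open for control replicate 2. Igfbp1 and Acsl1 separate all controls from both diabetic libraries, whereas in Phlda3 and Cdkn1a control replicate 2 lies with the diabetic libraries at 31.6 and 72.7 CPM.

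Of the 63 gene lists with at least 4 tested genes, those of the circadian clock held the largest share of genes without overlap with all 3 controls. In this oscillator Arntl and Clock activate genes that carry E-boxes, among them the Per and Cry repressors, Dbp, Tef and the Nr1d (Rev-erb) repressors, which in turn repress Arntl through ROR elements. Genes of the Arntl phase therefore peak when the others are low. All 5 measured genes of the Arntl phase were higher in both diabetic libraries than in every control, 3 of them at an unadjusted p under 0.05, against 10.8% and 1.19% of all genes tested. Their median log2 fold change was 1.26 with all controls and 1.24 without replicate 2, beside 0.00 and 0.01 over all genes. Leaving out each library in turn gave medians from 0.70 to 1.92.

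Arntl (chromosome 7, 113207465 to 113314126) had 1.21, 1.77 and 1.62 CPM in C and 6.48 and 19.4 CPM in DM-22, a log2 fold change of 2.54 ± 0.47 (adjusted p = 0.804) and of 2.42 ± 0.51 without replicate 2 (adjusted p = 0.0939). Its partner Npas2 had 1.61, 3.37 and 2.46 CPM in C and 4.19 and 13.2 CPM in DM-22, and Nfil3, a repressor that competes with Dbp for its sites, had 3.63, 3.31 and 2.99 CPM in C and 5.29 and 13.9 CPM in DM-22. Diabetic replicate 2 was the higher one in all 3 genes. Clock had 95.2, 90.2 and 87.7 CPM in C and 100.1 and 118 CPM in DM-22 and Cry1, the late repressor, had 5.22, 3.39 and 5.04 CPM in C and 7.58 and 5.55 CPM in DM-22, both with a smaller gap.

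All 13 measured genes of the opposite phase were lower in DM-22, with a median log2 fold change of -0.61 and, without replicate 2, of -0.91. Against all 3 controls 9 did not overlap and 6 had an unadjusted p under 0.05, against 9.29% and 3.28% of all genes. Without replicate 2 these were 11 and 8, against 29.5% and 14.8%. Dbp (chromosome 7, 45705088 to 45710203), a transcription factor of clock output, had 168, 225 and 219.8 CPM in C and 83.3 and 37.6 CPM in DM-22 and a log2 fold change of -1.85 ± 0.37. Ciart, a repressor of the Arntl complex, had 5.88, 12.4 and 15.6 CPM in C and 3.76 and 0.948 CPM in DM-22 and a log2 fold change of -2.14 ± 0.66. Per2, a core repressor, had 16.1, 34.1 and 47.3 CPM in C and 15.8 and 14.5 CPM in DM-22. In these 3 genes control replicate 2 was the lowest of the controls but still above the diabetic libraries. Nr1d2, Tef, Usp2, Cry2, Bhlhe41 and Wee1 did not overlap either, while Nr1d1 with 122, 138 and 129 CPM in C and 128 and 57.1 CPM in DM-22 and Per1 with 28.3, 47.8 and 90.6 CPM in C and 58.7 and 17.8 CPM in DM-22 did. The labels give no hour at which the animals were killed, and its part in these values was not tested.

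Motifs known for the clock were searched for in the RefSeq promoter windows on GRCm38.p6, 250 bases before and 50 after each start, because the genes of a phase lay on the same side of the controls. TAGGTCA, the core of an ROR element, was searched for in the Arntl phase, and CACGTG, the E-box, in the opposite phase, both on either strand and without overlap between the motifs searched. Capitals mark the motif and lower case 50 flanking bases where the window holds them. The Arntl stretch is chr7:113207491-113207560 on the plus strand, the Nfil3 stretch chr13:52980995-52981101 on the minus strand, the Per1 stretch chr11:69098733-69098838 on the plus strand and the Ciart stretch chr3:95882289-95882394 on the minus strand. In Nfil3 the motif is read as its reverse complement.
Arntl: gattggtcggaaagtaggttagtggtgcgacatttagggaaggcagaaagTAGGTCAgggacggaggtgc
Nfil3: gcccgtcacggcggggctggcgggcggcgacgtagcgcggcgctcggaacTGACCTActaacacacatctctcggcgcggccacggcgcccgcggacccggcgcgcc
Per1: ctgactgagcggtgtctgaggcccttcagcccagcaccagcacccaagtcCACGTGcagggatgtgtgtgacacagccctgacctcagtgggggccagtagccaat
Ciart: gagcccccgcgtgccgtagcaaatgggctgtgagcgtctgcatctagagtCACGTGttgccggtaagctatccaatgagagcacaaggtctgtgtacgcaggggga

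A gene can have several windows, and a gene was counted when any of its windows held the motif. TAGGTCA stood in 2 of the 5 Arntl-phase genes, Arntl and Nfil3, and in 2.97% of 27025 genes with a window (2.61% of 32851 windows). In Arntl it lies after the start site and in Nfil3 before it. CACGTG stood in 4 of the 10 opposite-phase genes with a window, namely Bhlhe41, Ciart, Per1 and Tef, and in 8.09% of all genes with a window (7.15% of windows). Per1, which carries it, overlapped between the groups, and Arntl and Ciart did not. A match of letters is a description of the window and not of a bound site.

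**Figure D2:**
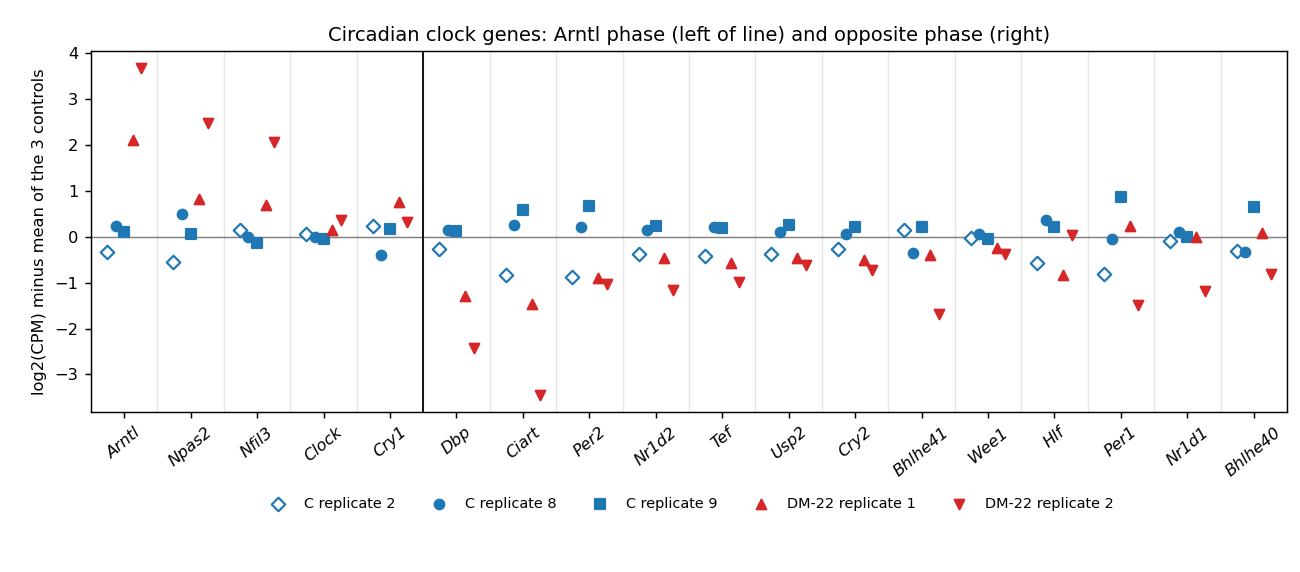
The log2 of the CPM minus the mean log2 of the 3 controls for each clock gene, with 1 point for each C and DM-22 library and a vertical line between the Arntl phase and the opposite phase. Arntl is higher in DM-22 (6.48 and 19.4 CPM) than in any control, while Dbp (83.3 and 37.6 CPM) and Ciart lie below every control.

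Along the nephron, the markers of the glomerulus gave no common direction. Of 15 podocyte genes 4 were higher and 11 lower, with a median log2 fold change of -0.22 against all controls and -0.14 without replicate 2. The diabetic libraries themselves were apart, with diabetic replicate 1 below replicate 2 in 14 of the 15 genes. Nphs1, the nephrin of the slit membrane, had 22.04, 35.2 and 28.4 CPM in C and 12.0 and 42.2 CPM in DM-22, and Wt1, the podocyte transcription factor, had 9.82, 11.5 and 11.5 CPM in C and 4.86 and 15.7 CPM in DM-22. The controls lay between the diabetic libraries in both genes. The 11 tested genes of mesangial, juxtaglomerular and smooth muscle cells had a median of -0.13 with all controls and 0.03 without replicate 2, the latter below 0 with scaling by the library total. Of 16 endothelial genes 14 were higher, with medians of 0.22 and 0.33. Of the 16, 1 lay above all 3 controls and 1 below all 3, beside 10.8% and 9.29% of all genes. The 1 above was Sox18, an endothelial transcription factor, with 16.3, 11.6 and 11.1 CPM in C and 23.1 and 21.6 CPM in DM-22. Its log2 fold change was 0.78 ± 0.21. Ehd3, an endocytic protein of glomerular endothelium, had 49.3, 30.9 and 33.8 CPM in C and 47.5 and 61.1 CPM in DM-22.

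In the proximal tubule the reading depended on control replicate 2 and on which diabetic library was taken. The 16 markers of its early part summed to 7811, 20421 and 17755 CPM in C and 7843 and 20030 CPM in DM-22. Control replicate 2 lay below both other controls in 15 of the 16 genes, and diabetic replicate 1 below diabetic replicate 2 in 15. Slc5a2, the glucose carrier SGLT2, had 169, 748 and 664 CPM in C and 274 and 929.6 CPM in DM-22, with a log2 fold change of 0.20 ± 0.76 against all controls and -0.48 ± 0.54 without replicate 2. Slc34a1, the phosphate carrier of the brush border, had 2841, 8363 and 8096 CPM in C and 2937 and 9452 CPM in DM-22, and Slc6a19, the carrier of neutral amino acids, had 142, 765 and 653 CPM in C and 253 and 377 CPM in DM-22. Control replicate 2 and diabetic replicate 1 were thus the low libraries for SGLT2 and the phosphate carrier. The median of the list was -0.17 with all controls and -0.53 without replicate 2. The 13 markers of the late part had medians of -0.11 and -0.54, and Slc22a7, an organic anion carrier, had 10.8, 134 and 121 CPM in C and 54.5 and 50.3 CPM in DM-22.

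The thick ascending limb was the only segment whose markers all lay on 1 side in both comparisons. All 13 tested genes had a higher mean in DM-22 with all controls and without replicate 2, with a median log2 fold change of 0.57 and, without replicate 2, 0.87. Over the leave-one-out fits against all controls the median ran from 0.34 to 1.23. The summed level was 8015, 6287 and 5342 CPM in C and 16718 and 5872 CPM in DM-22, so that diabetic replicate 1 alone was far above the controls while replicate 2 was within their range. Slc12a1, the salt carrier NKCC2 of this segment, had 2335, 922 and 876 CPM in C and 5580 and 602 CPM in DM-22, with diabetic replicate 2 below every control. Kcnj1, its potassium channel ROMK, had 416, 128 and 124 CPM in C and 394 and 346 CPM in DM-22. Cldn10, which forms its paracellular sodium path, had 217, 159.9 and 145 CPM in C and 444 and 225 CPM in DM-22 and a log2 fold change of 0.88 ± 0.36, and Casr, the calcium-sensing receptor, had 75.2, 53.4 and 37.2 CPM in C and 78.7 and 85.1 CPM in DM-22. In Cldn10 and Casr, 2 of the 13 genes, both diabetic libraries lay above all 3 controls, beside 10.8% of all genes. The gap was narrow in Cldn10 for diabetic replicate 2 and in Casr for diabetic replicate 1. Slc12a1 and Kcnj1 overlapped. The 7 markers of the thin limb summed to 2195, 1124 and 1140 CPM in C and 3332 and 1001 CPM in DM-22, and their median was 0.19 and 0.68.

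In the distal segments the diabetic libraries often lay on either side of the controls. The 13 genes of the distal convoluted tubule had medians of 0.22 and 0.38. Slc12a3, its thiazide-sensitive salt carrier NCC, had 727, 1028 and 845 CPM in C and 340.2 and 1523 CPM in DM-22, with the controls between the diabetic libraries. Wnk4, the kinase that controls this carrier, had 239, 216 and 184 CPM in C and 322 and 249 CPM in DM-22, and Fxyd2, a subunit of the sodium pump, had 1859, 1571 and 1582 CPM in C and 2201 and 1924 CPM in DM-22, both above all controls. These were the 2 of the 13 genes above all 3 controls, beside 10.8% of all genes. In the connecting tubule, diabetic replicate 1 was below replicate 2 in all 7 genes, and the sums were 5350, 3417 and 2731 CPM in C and 2321 and 6995 CPM in DM-22. Its median, 0.09 with all controls, was 0.00 when scaled by the library total. The 14 genes of principal cells had medians of 0.32 and 0.65, and 1 of them lay above all 3 controls, beside 10.8% of all genes. Aqp3, the water channel of their basolateral side, had 104, 118 and 118 CPM in C and 155 and 142 CPM in DM-22 and did not overlap, whereas Aqp2, the vasopressin-controlled channel, had 419, 188 and 199 CPM in C and 640.0 and 167 CPM in DM-22 and did. The 17 genes of intercalated cells, which secrete acid or base, had medians of 0.21 and 0.40. Slc4a1, their anion exchanger, had 116, 55.7 and 47.7 CPM in C and 112 and 87.0 CPM in DM-22, and Slc26a4, pendrin, had 65.5, 88.1 and 76.6 CPM in C and 24.9 and 127 CPM in DM-22. The 4 tested genes of the macula densa had medians of 0.11 and 0.34.

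**Figure D3:**
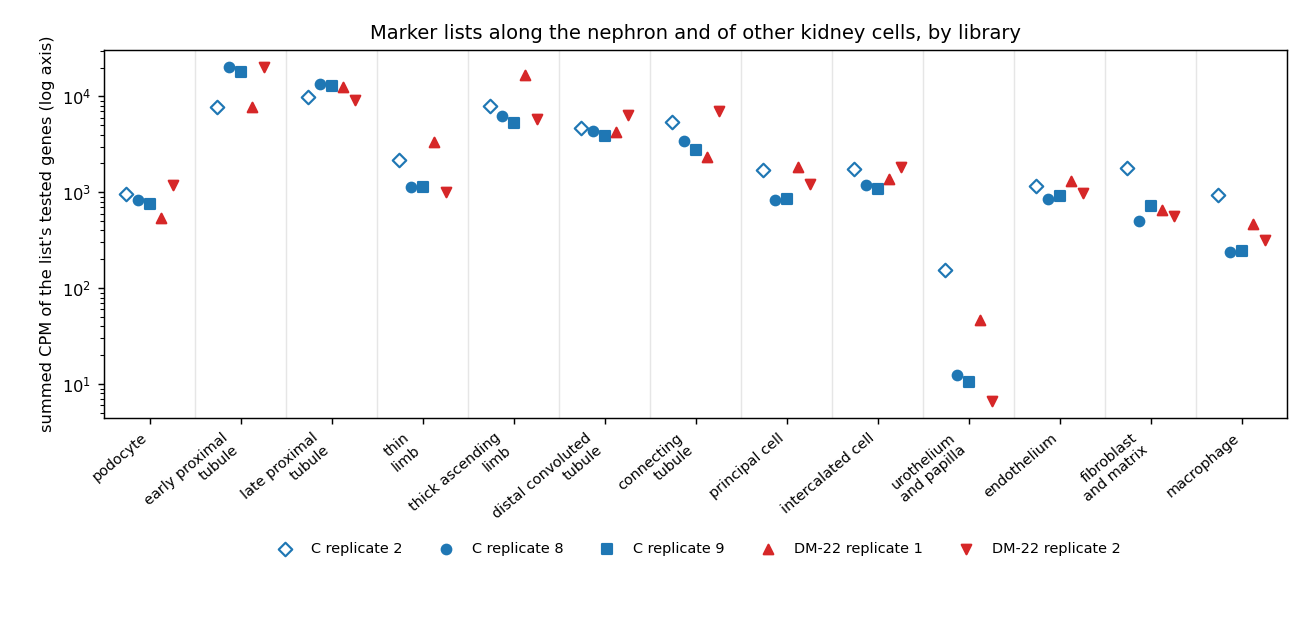
Summed CPM of the marker genes of each nephron segment and of urothelium, endothelium, fibroblasts and macrophages in each C and DM-22 library, on a log axis with 1 point a library. Control replicate 2 and diabetic replicate 1 are low for the early proximal tubule (7811 and 7843 CPM), and diabetic replicate 1 is high for the thick ascending limb (16718 CPM).

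Cell-cycle arrest was read from the p53 targets and the CDK inhibitors. Cdkn1a, which encodes p21 and arrests the cycle (chromosome 17, 29090976 to 29100727), had 72.7, 4.63 and 5.36 CPM in C and 52.6 and 123 CPM in DM-22. The log2 fold change was 3.89 ± 0.38 without control replicate 2 (adjusted p = 0.0781) and 2.64 ± 1.13 with it (adjusted p = 0.804). Control replicate 2 lay between the diabetic libraries. Trp53 itself had 34.4, 31.8 and 31.6 CPM in C and 25.8 and 29.1 CPM in DM-22, below every control in DM-22, and Mdm2, the ligase that degrades p53, had 41.2, 37.5 and 39.1 CPM in C and 49.3 and 42.5 CPM in DM-22, above every control. Ccng1, a cyclin induced by p53, had 443, 208 and 202 CPM in C and 390.0 and 419.7 CPM in DM-22, with control replicate 2 again the highest. Of 34 p53 targets tested, 12 were higher and 2 lower at an unadjusted p under 0.05 without replicate 2, beside 10.4% and 14.8% of all genes. With all controls the counts were 0 and 1, beside 1.19% and 3.28%. Above all 3 controls lay 4 of the 34 and below all 3 lay 4, near the 10.8% and 9.29% of all genes. The median of the p53 targets was 0.08 with all controls, just below 0 with scaling by the library total, and 0.19 without replicate 2. The list of CDK inhibitors and senescence genes had medians of 0.07, or -0.02 with scaling by the library total, and 0.19 without replicate 2. Cdkn1b had 46.6, 42.6 and 49.2 CPM in C and 47.2 and 36.2 CPM in DM-22, and Cdkn2b had 7.73, 1.16 and 0.791 CPM in C and 15.4 and 0.462 CPM in DM-22, high in diabetic replicate 1 and below every control in replicate 2.

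The summed markers of tubular injury, dividing cells and macrophages were highest in the nondiabetic replicate 2. Havcr1, the injury marker Kim-1, had 29.5, 1.98 and 1.84 CPM in C and 3.98 and 2.17 CPM in DM-22. Lcn2, the injury marker Ngal, had 74.9, 0.926 and 0.983 CPM in C and 52.7 and 2.13 CPM in DM-22, and Spp1, osteopontin, had 4898, 638 and 542 CPM in C and 1719 and 1172 CPM in DM-22. The 19 injury genes summed to 9039, 2627 and 2395 CPM in C and 4692 and 3746 CPM in DM-22, with a median log2 fold change of 0.14 with all controls and 0.65 without replicate 2. The proliferation list, with 21 genes, had medians of 0.09 and 0.41, and Mki67 had 6.34, 2.72 and 3.08 CPM in C and 3.10 and 3.08 CPM in DM-22. All 18 macrophage genes were higher in control replicate 2 than in both other controls, with sums of 927, 236 and 244 CPM in C and 472 and 321 CPM in DM-22. Their median was 0.08, or -0.01 with scaling by the library total, and 0.71 without that library, where 12 of them were higher at an unadjusted p under 0.05, beside 10.4% of all genes. The antigen-presenting genes of class II had medians of -0.08 and 0.54. Ciita, their master activator, went the other way, with 7.06, 5.98 and 5.53 CPM in C and 2.70 and 3.47 CPM in DM-22. It was the 1 gene of 7 in this list below every control, beside 9.29% of all genes. The 21 interferon-stimulated genes had medians of -0.08 and 0.70, and Isg15 had 26.6, 1.89 and 2.29 CPM in C and 8.15 and 3.93 CPM in DM-22. The sign of the class II and interferon medians thus turned with control replicate 2. Chemokines and cytokines, with 21 genes, had medians of -0.22 and 0.17. Among 13 complement genes, C3 had 345, 15.9 and 16.3 CPM in C and 25.2 and 38.2 CPM in DM-22.

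Glucose carriers gave no common direction, and glycolytic transcripts were higher in DM-22 when replicate 2 was left out. The 6 glucose transporters had medians of -0.06 and 0.09. Slc2a1, the carrier GLUT1, had 89.7, 45.8 and 45.7 CPM in C and 146 and 61.8 CPM in DM-22, and Slc2a2, the basolateral carrier GLUT2 of the proximal tubule, had 150.4, 229 and 213 CPM in C and 108 and 216 CPM in DM-22. All 14 glycolytic genes lay above control replicates 8 and 9 in both diabetic libraries, beside 29.9% of all genes, and 0 lay above all 3 controls. Their sums were 11283, 6469 and 6181 CPM in C and 9779 and 9480 CPM in DM-22, so that control replicate 2 exceeded both diabetic libraries, and their medians were 0.28 and 0.50. Pkm, the pyruvate kinase of glycolytic tissues, had 906, 252 and 239 CPM in C and 967 and 475 CPM in DM-22, and Hk1, a hexokinase, had 299.7, 130.5 and 111 CPM in C and 401 and 170.0 CPM in DM-22. Gluconeogenic genes had medians of 0.12 and 0.07, and Pck1, their rate-setting enzyme, had 844, 1196 and 1871 CPM in C and 979.9 and 1851 CPM in DM-22. In the polyol pathway Akr1b3, the aldose reductase, had 73.2, 48.2 and 59.7 CPM in C and 91.3 and 70.8 CPM in DM-22, and the list median was -0.02 and -0.03, the former just above 0 with median-of-ratios scaling.

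Transcripts of oxidative phosphorylation were higher in the diabetic libraries than in control replicates 8 and 9. Of 35 complex I genes, which pass electrons from NADH, 27 were higher at an unadjusted p under 0.05 without replicate 2 and 0 were lower, beside 10.4% and 14.8% of all genes. With all controls 0 were higher at that p (limma), beside 1.19%. Their median was 0.39 with all controls and 0.61 without replicate 2, and 11 lay above all 3 controls, beside 10.8% of all genes. Ndufa1, a small subunit, had 145, 103 and 103 CPM in C and 163 and 172 CPM in DM-22. Complexes II to IV had medians of 0.34 and 0.54, and ATP synthase had 0.37 and 0.52. The summed levels of complex I were 7375, 5150 and 5159 CPM in C and 7678 and 7437 CPM in DM-22, with control replicate 2 close to the diabetic libraries. Fatty acid oxidation, with 18 genes, had medians of 0.10 and 0.07. Above all 3 controls lay 2 of the 18, near the 10.8% of all genes. Slc25a20, which brings acylcarnitine into mitochondria, had 64.9, 50.5 and 49.9 CPM in C and 72.7 and 72.2 CPM in DM-22 and did not overlap, while Cpt1a, the entry enzyme, had 403, 716 and 662 CPM in C and 668 and 697 CPM in DM-22. Ketone body genes had medians of 0.05, or -0.04 with scaling by the library total, and -0.07 without replicate 2. Peroxisomal lipid genes had 0.03 with all controls, -0.06 with that scaling and -0.09 without replicate 2.

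Most genes of cholesterol synthesis had a lower mean in DM-22, with a lower list median when all 3 controls were counted. Of 23 genes 20 were lower, 9 lay below all 3 controls and 1 above, beside 9.29% and 10.8% of all genes. At an unadjusted p under 0.05, 5 were lower, beside 3.28%. Without replicate 2, 17 were lower, 9 lay below both controls and 3 above, and 5 were lower at an unadjusted p under 0.05, beside 29.5%, 29.9% and 14.8% of all genes. The median log2 fold change was -0.36 with all controls and -0.22 without replicate 2, and ran from -0.52 to -0.22 over the leave-one-out fits. Insig1, which retains the SREBP activator complex, had 79.2, 61.5 and 91.7 CPM in C and 28.01 and 49.0 CPM in DM-22, a log2 fold change of -1.03 ± 0.27. Hmgcs1, an early enzyme of the pathway, had 538, 567 and 607 CPM in C and 387 and 396 CPM in DM-22. In both genes the diabetic libraries were below every control, and Sc5d, Idi1, Lss, Dhcr7 and Hsd17b7 did not overlap either. Fatty acid synthesis, with 15 genes, had medians of -0.05 and -0.16. The sterol response letters CACCCCAC were searched for in the same promoter windows on both strands and stood in 1 of 16 cholesterol genes with a window and in 3.3% of all genes with a window (2.87% of windows). The 1 gene was Hmgcs1, whose stretch chr13:119690165-119690272 on the plus strand is shown with the motif in capitals.
Hmgcs1: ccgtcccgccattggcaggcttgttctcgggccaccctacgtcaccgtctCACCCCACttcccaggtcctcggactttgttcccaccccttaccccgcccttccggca

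**Figure D4:**
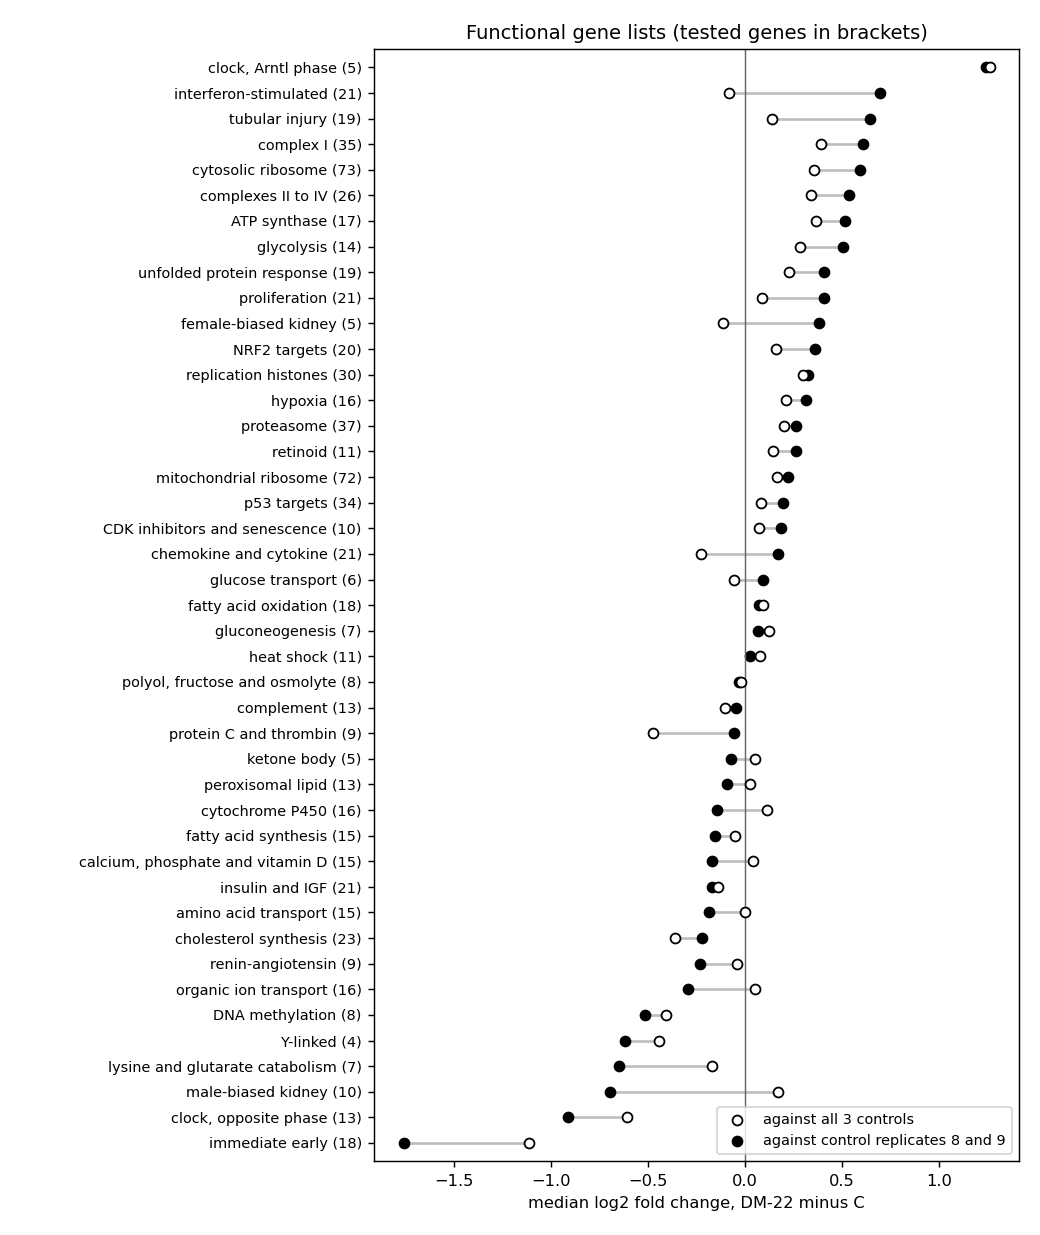
Median log2 fold change (DM-22 minus C) of each functional gene list with all 3 controls and without control replicate 2, with 1 point for each. Clock genes of the Arntl phase lie highest (1.26 with all controls), cholesterol synthesis lies below 0 with both sets, and the interferon list moves from -0.08 to 0.70.

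Ribosomal transcripts, nuclear RNAs and transcript length differed in the same libraries. Of 73 genes of the cytosolic ribosome 55 were higher at an unadjusted p under 0.05 without replicate 2, beside 10.4% of all genes, and 0 with all controls, beside 1.19% (limma). Above all 3 controls lay 2 of them, beside 10.8% of all genes, and the medians were 0.36 and 0.59. Control replicate 2 lay above both other controls in 72 of them, and the sums were 26660, 16604 and 17135 CPM in C and 24566 and 25676 CPM in DM-22. The mitochondrial ribosome had medians of 0.16 and 0.22, and the proteasome had 0.20 and 0.26. Malat1, a long RNA kept in the nucleus, had 47.5, 292 and 389.8 CPM in C and 32.3 and 41.8 CPM in DM-22, and Neat1, the scaffold of paraspeckles, had 46.3, 165 and 237 CPM in C and 38.3 and 16.6 CPM in DM-22. Control replicate 2 was low for both RNAs, as were the diabetic libraries.

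The tested protein-coding genes, 13262 with an exon length, were ordered by it into 5 equal bins, with median lengths of 1775, 3116, 4455, 6243 and 9933 bases. The median log2 fold change ran across these bins from 0.15 through 0.06, 0.01 and -0.04 to -0.12 with all controls, and from 0.24 to -0.20 without replicate 2. The same order held within the controls, where replicate 2 minus the mean of replicates 8 and 9 had medians of 0.26, 0.09, 0.01, -0.11 and -0.25. In the shortest bin 13.8% of genes lay above all 3 controls and 4.30% below, against 6.14% and 12.2% in the longest. The part of transcript length in the other lists was not tested.

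**Figure D5:**
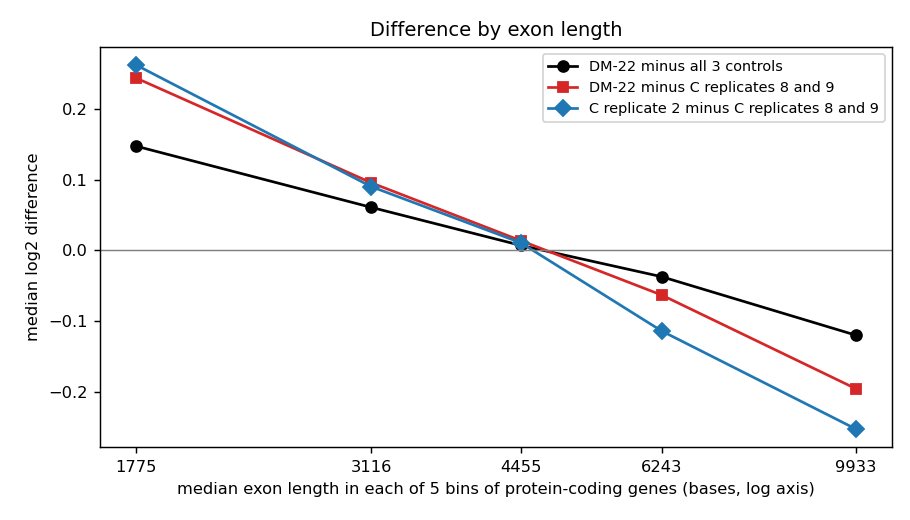
Median log2 difference against the median exon length (bases, log axis) in 5 equal bins of protein-coding genes. The lines are DM-22 minus all 3 C, DM-22 minus C replicates 8 and 9, and C replicate 2 minus C replicates 8 and 9, and all 3 go down with length, the last from 0.26 to -0.25.

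The matrix list had its low median in DM-22 where control replicate 2 was counted. The 20 fibroblast and matrix genes had a median of -0.81 with all controls and -0.12 without replicate 2, and summed to 1792, 505 and 720.0 CPM in C and 647 and 562 CPM in DM-22. Below every control lay 6 of them, beside 9.29% of all genes, namely Col1a1, Col3a1, Fn1, Col5a1, Pdgfra and Col6a3. Without replicate 2, 6 of the 20 lay below both other controls and 4 above both. The shares of all genes were then 29.5% and 29.9%. Col1a1, the main chain of interstitial collagen, had 168, 23.3 and 22.4 CPM in C and 21.5 and 21.0 CPM in DM-22, and Fn1, fibronectin, had 104, 28.3 and 41.6 CPM in C and 27.3 and 22.2 CPM in DM-22. Col6a3 had 35.9, 20.001 and 26.9 CPM in C and 10.2 and 11.7 CPM in DM-22 and a log2 fold change of -1.26 ± 0.31. The 20 basement membrane genes had medians of -0.10 and -0.09. Col4a1, the chain found in most basement membranes, had 464, 244 and 215 CPM in C and 294 and 339 CPM in DM-22, and Lama5, a laminin chain of the glomerular membrane, had 82.6, 104 and 97.5 CPM in C and 80.6 and 49.5 CPM in DM-22, below every control, as were Lama2 and Nid1. These were 3 of the 20, beside 9.29% of all genes.

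Among signalling genes, the insulin and IGF list of 21 genes had medians of -0.14 and -0.17. Below all 3 controls lay 3 of the 21, beside 9.29% of all genes, and 0 lay above, beside 10.8%. Besides Igfbp1, Irs2, an adaptor of the insulin receptor, lay below every control, with 31.9, 41.9 and 27.1 CPM in C and 15.0 and 24.5 CPM in DM-22 and a log2 fold change of -0.77 ± 0.27. Pdk4, which shuts pyruvate out of oxidation, had 16.7, 15.0 and 17.8 CPM in C and 128 and 9.13 CPM in DM-22, far apart in the diabetic libraries. Agtr1a, the angiotensin receptor, had 35.4, 64.0 and 62.3 CPM in C and 34.0 and 48.7 CPM in DM-22, and Ace had 174, 485 and 430.1 CPM in C and 379 and 308 CPM in DM-22. The renin-angiotensin list had medians of -0.04 and -0.23. For the protein C pathway, which generates the anticoagulant protease activated protein C, Thbd, thrombomodulin, had 46.4, 22.9 and 30.6 CPM in C and 36.4 and 34.9 CPM in DM-22, and Procr, the protein C receptor, had 3.74, 1.22 and 1.32 CPM in C and 1.94 and 1.43 CPM in DM-22. Both overlapped with the controls through replicate 2. Tfpi, an inhibitor of coagulation, had 11.2, 11.6 and 8.74 CPM in C and 5.71 and 5.48 CPM in DM-22. It was the 1 gene of 9 tested in this list below every control, beside 9.29% of all genes. The list had medians of -0.48 with all controls and -0.06 without replicate 2. Its sums were 1304, 877 and 761 CPM in C and 1443 and 399 CPM in DM-22, with diabetic replicate 1 above replicate 2 in all 9 genes. In the lysine and glutarate list the median was -0.17 and -0.65. Aass, the first enzyme of lysine breakdown, had 274, 739 and 727 CPM in C and 275 and 656 CPM in DM-22.

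Enzymes that add and enzymes that remove DNA methylation were pooled in 1 list of 8 genes, with medians of -0.41 and -0.52. All 8 had a lower mean in DM-22 with all controls, while without replicate 2, 7 were lower and 1 higher. Below every control lay 5 of them, beside 9.29% of all genes. The medians do not separate the methylating from the demethylating enzymes. Dnmt1, which copies methylation at replication, had 24.7, 30.1 and 27.3 CPM in C and 22.8 and 22.9 CPM in DM-22 and a log2 fold change of -0.25 ± 0.15 against all controls (adjusted p = 0.804) and -0.32 ± 0.13 without replicate 2 (adjusted p = 0.198). Tet3, which oxidises methylcytosine, had 16.2, 33.1 and 32.9 CPM in C and 13.2 and 13.4 CPM in DM-22 and a log2 fold change of -0.94 ± 0.35, and Tet1 had 1.92, 3.62 and 3.57 CPM in C and 1.12 and 1.04 CPM in DM-22. Tet2 (chromosome 3, 133463679 to 133545139) had 10.2, 38.6 and 46.0 CPM in C and 10.5 and 5.80 CPM in DM-22 and, without replicate 2, a log2 fold change of -2.35 ± 0.43. Control replicate 2 was the lowest control for all 4 genes and overlapped with the diabetic libraries for Tet2.

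Stress pathways were mixed. NRF2 targets, which serve antioxidant defence, had medians of 0.16 and 0.36 over 20 genes, and beside Hmox1, Nqo1 had 123, 82.6 and 74.7 CPM in C and 185 and 78.1 CPM in DM-22 and Gclm 422, 511 and 477 CPM in C and 511 and 404 CPM in DM-22. The unfolded protein response had medians of 0.23 and 0.41, and 1 of its 19 genes lay below all 3 controls, beside 9.29% of all genes. Hspa5, the main chaperone of the endoplasmic reticulum, had 491, 343 and 382 CPM in C and 402 and 853 CPM in DM-22, while Ddit3, its death factor CHOP, had 10.5, 7.03 and 30.1 CPM in C and 6.44 and 6.36 CPM in DM-22, below every control. Heat shock genes had medians of 0.08 with all controls and 0.03 without replicate 2, which were -0.01 and -0.04 with scaling by the library total, and Hspa1a had 88.5, 42.1 and 621 CPM in C and 165 and 97.5 CPM in DM-22. Immediate early genes, which answer stimulation within minutes, had medians of -1.11 and -1.76, which were -0.16 and -0.18 without control replicate 9. Over all leave-one-out fits they ran from -1.76 to -0.16 and from -3.18 to -0.18. Control replicate 9 was the highest of the 5 libraries in 15 of 18. Fos had 5.02, 5.43 and 331 CPM in C and 4.09 and 0.740 CPM in DM-22, and the sums were 652, 651 and 4928 CPM in C and 755 and 492 CPM in DM-22. The sums of control replicates 2 and 8 lay between those of the diabetic libraries. Hypoxia genes had medians of 0.21 and 0.31, although Vegfa, their best known member, had 64.8, 184 and 244 CPM in C and 74.0 and 88.7 CPM in DM-22. Retinoid genes had medians of 0.14 and 0.26.

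Lists of organic ion transport, cytochrome P450, calcium and sex-biased genes had another sign with control replicate 2 than without it. Amino acid transport kept its sign, with medians just below 0 with all controls, or 0.02 with median-of-ratios scaling, and of -0.18 without replicate 2. Organic ion transport had 0.05, or -0.04 with scaling by the library total, and -0.29, and cytochrome P450 genes had 0.12 and -0.15. Slco1a1, an androgen-dependent carrier of organic anions, had 2.69, 297 and 390.3 CPM in C and 50.9 and 443 CPM in DM-22, and Cyp4b1 had 422, 5344 and 5444 CPM in C and 1110 and 6695 CPM in DM-22. The 10 genes known for higher expression in male kidney had medians of 0.17 and -0.70 and summed to 4407, 23670 and 23548 CPM in C and 15804 and 26706 CPM in DM-22. Kap, the androgen-regulated kidney protein, had 2090, 17573 and 16868 CPM in C and 12472 and 19037 CPM in DM-22. Y-linked genes were present in all 5 libraries, with sums of 97.9, 152 and 156 CPM in C and 105 and 98.4 CPM in DM-22. The female-biased genes had medians of -0.11 and 0.38. Calcium and vitamin D genes had 0.04, or -0.05 with scaling by the library total, and -0.17, and Cyp24a1, which inactivates vitamin D, had 21.4, 130.3 and 237 CPM in C and 64.2 and 186 CPM in DM-22.

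Markers of tissue that lies beside the kidney cortex also differed between libraries. The 7 adipose genes had sums of 5.22, 37.2 and 16.4 CPM in C and 4.70 and 3.91 CPM in DM-22, and Adipoq, the fat cell hormone, had 0.165, 3.31 and 1.56 CPM in C and 0.162 and 0.139 CPM in DM-22. All 7 had a lower mean in DM-22, with medians of -1.38 with all controls and -1.82 without replicate 2. These were the largest absolute medians of the 63 lists. Below all 3 controls lay 4 of the 7, beside 9.29% of all genes. Below control replicates 8 and 9 lay all 7, beside 29.5%. The 11 genes of urothelium and papilla summed to 156, 12.3 and 10.6 CPM in C and 46.6 and 6.61 CPM in DM-22, and Upk1b, a urothelial plaque protein, had 14.9, 0.905 and 0.513 CPM in C and 3.51 and 0.301 CPM in DM-22. Genes of B and plasma cells summed to 187, 179 and 891 CPM in C and 64.6 and 399 CPM in DM-22. The T and NK cell list had medians of -0.04 and 0.17. Control replicates 8 and 9 held the most adipose signal, control replicate 2 the most urothelial signal and control replicate 9 the most plasma cell signal. Their part in the other results was not tested.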

How the data were processed

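RNA of 7 mouse kidney libraries was sequenced by the authors, who per the labels used bcl2fastq, FastQC, Trim Galore, STAR and edgeR on mm10, with versions not given in the sources used here. Libraries were strand-specific and polyA-selected. The deposited values were log2 CPM (reads scaled to library size), normalized by the authors with TMM and a small prior count. The values were returned to CPM, and 100% of them gave whole reads within 0.05 read. Genes that reached 1 CPM in 2 or more of the 7 libraries were kept. The test was limma 3.58.1 (lmFit, eBayes with trend) on log2(CPM + 0.5), so folds of low genes are understated, with 3 groups in 1 fit, two-sided, Benjamini-Hochberg over 13976 genes, threshold 0.05. It was tested on simulated data.

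Replicate numbers did not pair the groups. The members and gene lists were chosen with earlier results of these data known, and lists are described by counts and medians without a test. No overlap means that both DM-22 values lie beyond every control value used. Genes named were members of the lists, the 10 in each direction with the widest gap without overlap, the 10 with the smallest p without control replicate 2, the 10 furthest apart in that library, and Cdkn1a, Dnmt1 and Havcr1. Alternatives were limma voom on the recovered reads, median-of-ratios and total scaling, other pseudocounts, no filter, a fit of the compared libraries alone, and leaving out each library. Promoters came from RefSeq tables, gene positions from GENCODE M21, both on GRCm38. Some genes that met these rules are not reported here.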

Additional observations from a re-analysis of the deposited data

How the results depend on the processing

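No paired analysis was possible because the controls (2, 8 and 9) and the DM-22 mice (1 and 2) share fewer than 2 replicate numbers. Against all 3 controls, leaving out 1 library in turn gave 0 to 2 called genes, 30 to 1455 genes higher and 137 to 2070 lower at an unadjusted p under 0.05, the upper ends without control replicate 2. There, higher genes numbered 252 with median-of-ratios and 48 with total scaling. Genes without overlap numbered 498 higher and 2074 lower with total scaling. Against control replicates 8 and 9, the called genes numbered 0 with limma voom, in a fit of the DM-22 and C libraries alone and with total scaling, and 0 to 3008 in the leave-one-out fits, with 411 to 2370 higher and 939 to 2863 lower at an unadjusted p under 0.05. In these fits a lone library is assumed to vary like the other groups. Of 1071 alternative values of list medians 125 moved by more than the spread, and of 616 for named genes 14 lost and 36 gained the threshold, with 0 reversed. The cause was not tested. The median standard error of a gene was 0.23 on the log2 scale (0.19 without replicate 2), and with all controls no gene passed the adjusted threshold at any size of difference.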
